A study of Sparus aurata with 5 samples.

Results

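Claudin-5 (cldn5) is a member of the claudin family, and its transcript was quantified by qPCR in RNA from the anterior intestine of juvenile gilthead seabream (Sparus aurata), a marine teleost raised in aquaculture. It is 1 of the 14 target genes and 1 of the 7 claudins of the assay, and it has a quantification cycle and a relative expression in 60 of 60 fish. The gene was chosen from its measured values across diets, so its levels and the differences between diets are given here as a description with their errors and without a test. The question behind the feeding trial was whether 2 microalgae-based ingredients, LB-GREENboost and LB-GUThealth, change intestinal function. The fish received a control diet without microalgae or nutraceuticals (CT), or that feed with 0.5% (GB5) or 1% (GB10) of LB-GREENboost, or with 0.5% (GH5) or 1% (GH10) of LB-GUThealth, and 12 fish per diet were measured. Both ingredients are concentrates with hydrolysed microalgae, LB-GREENboost holding the larger share of them. The trial had 3 tanks per diet, and the methods give 4 fish per tank for the enzyme and electrophysiology samples. The tank of each fish measured by qPCR is not named. Each SD and standard error (SE) below is therefore over fish and could be too small if tanks differed.

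Claudins are membrane proteins that span the plasma membrane and meet their counterparts on the neighbouring cell, forming the strands of the tight junction. Some members seal the space between cells and others form pores for ions or water, so the barrier of an epithelium depends on which claudins it holds. In mammals claudin-5 is best known from the endothelium of blood vessels, above all at the blood-brain barrier, where it seals the junction against small molecules. It is also found in mammalian gut epithelium. Teleosts often hold several copies of a mammalian claudin, and the RefSeq gene table of the seabream assembly fSpaAur1.1 lists 2 genes under this name, cldn5a and cldn5b. The primers were listed for a GenBank record that this RefSeq table does not hold. No sequences were compared, so which of the 2 copies was amplified is not settled here.

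The transcript was of intermediate abundance among the claudins. Its mean cycle was 28.07 ± 0.43 (SD, n = 60 fish), with single fish between 26.835 and 29.22. A quantification cycle is the amplification cycle at which the signal of a well passes a threshold. It is a log2 scale running downwards, so that an early cycle means abundant template and 1 cycle is a factor of 2 at perfect doubling. The claudins cldn15 (mean cycle 24.26), cldn7b (24.51) and cldn4l (24.97) appeared earlier than cldn5 in every fish measured, 59, 60 and 60 fish. The mean of their cycle minus that of cldn5 in the same fish was -3.81, -3.56 and -3.10, which at perfect doubling would be 11.8-fold more template for cldn7b and 8.58-fold more for cldn4l. The other claudins came later. Mean cycles were 30.23 for cldn24, 31.19 for cldn3 and 32.55 for cldn4, and cldn5 was ahead of them in 59 of 60, 58 of 58 and 60 of 60 fish. The fold between 2 genes also depends on the efficiency and length of each amplicon, for which no value was used here, so these folds hold only for equal amplification of the genes compared.

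The cldn5 cycle varied about as little between fish as the cycles of the abundant claudins. Its SD within diets was 0.42 cycles, the same as for cldn7b and above 0.32 for cldn4l and 0.33 for cldn15, whereas the late claudins spread over 0.99 (cldn24), 1.52 (cldn4) and 1.74 (cldn3) cycles. Cldn15, a pore-forming claudin of the intestinal epithelium in mammals, was the marker at hand for the labelled tissue, and it was detected in 59 of 60 fish. The assay holds no endothelial gene other than cldn5 itself. A whole piece of intestine was extracted, so a lower level could come from fewer cells of a type or from less transcript per cell, and these cannot be told apart.

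Relative expression is the ratio of cldn5 to the reference gene eef1a, a translation elongation factor, in the same fish, divided by the mean of that ratio in the control fish. In CT it was 1.00 ± 0.442 (mean ± SD, n = 12), with a lowest fish of 0.381, a median of 0.854 and a highest fish of 1.93. In GB5 it was 0.885 ± 0.388, from 0.454 through a median of 0.80 to 1.98, and in GB10 it was 0.812 ± 0.287, from 0.405 through 0.810 to 1.25. The highest GB5 fish stood away from its group, where the second highest was 1.06.

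In GH5 relative expression was 0.988 ± 0.256, from a lowest fish of 0.645 through a median of 0.959 to 1.51, and in GH10 it was 1.20 ± 0.493, from 0.472 through 1.09 to 1.96. The 5 diets overlapped over most of their range. No fish of any supplemented diet was below the lowest CT fish, and only 1 GB5 fish and 1 GH10 fish were above the highest CT fish. With marks set after the values were seen, fish at the upper end were most often from GH10 and fish at the lower end most often from GB10. Values above 1.4 occurred in 5 of 12 GH10 fish, 2 of 12 GH5 fish and 2 of 12 CT fish, against 1 of 12 in GB5 and 0 of 12 in GB10. Values below 0.6 occurred in 4 of 12 GB10 fish and 2 of 12 GB5 fish, against 0 of 12 in GH5, 1 of 12 in GH10 and 1 of 12 in CT.

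**Figure D1:**
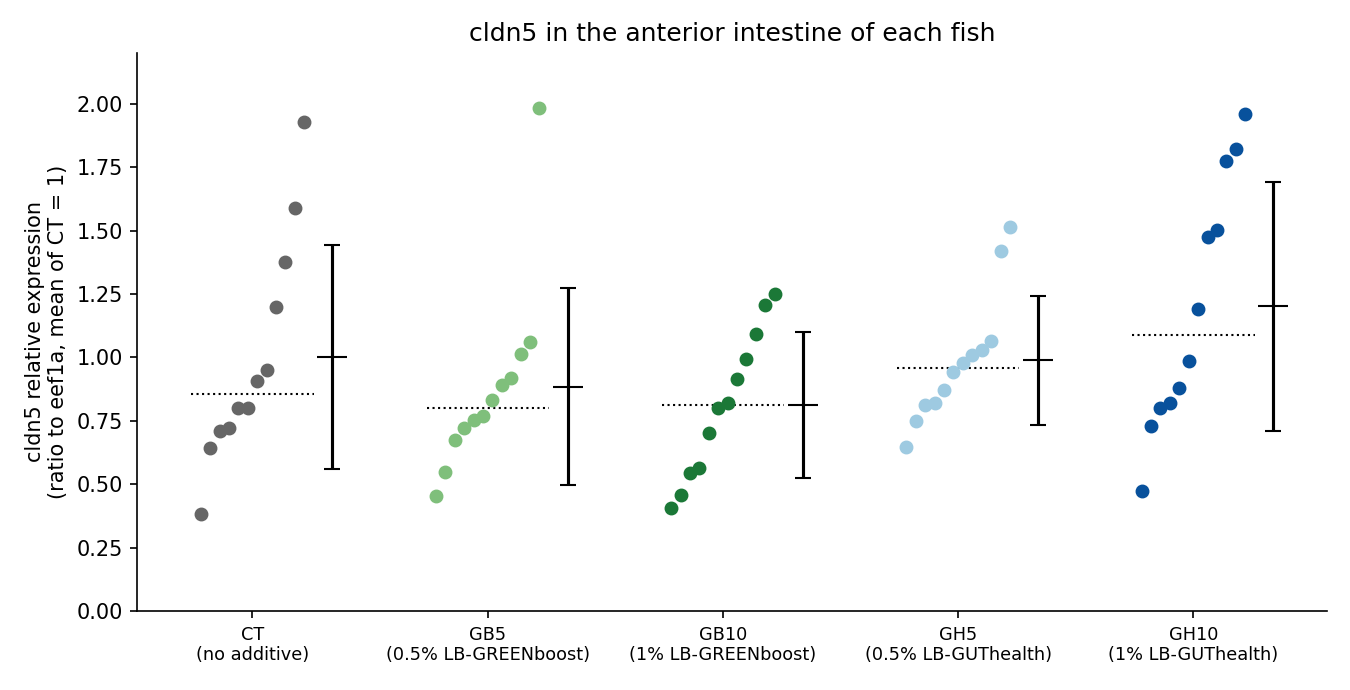
Relative expression of cldn5 (ratio to eef1a, mean of CT set to 1, linear axis) in each of 60 fish by diet. Points are fish in rising order, dotted lines are medians, and the bars beside them are mean ± SD (n = 12 per diet). The diets overlap, with 5 GH10 fish above 1.4 and no GB10 fish above 1.25.

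Ranked by their means, the diets fell in the order GH10, CT, GH5, GB5 and GB10. Each diet differed from the next by less than the spread between fish. On the log2 scale the gap was 0.27 between GH10 and CT, -0.07 between CT and GH5, 0.22 between GH5 and GB5 and 0.12 between GB5 and GB10, against a pooled SD of 0.55 within diets. The negative sign shows that CT and GH5 change places when means are taken on the log2 scale, where CT had -0.13 and GH5 -0.06. Against CT, the log2 difference was -0.15 ± 0.24 (SE, 24 fish) for GB5, -0.26 ± 0.24 for GB10, 0.07 ± 0.21 for GH5 and 0.27 ± 0.26 for GH10. Both LB-GREENboost diets lay below the control and both LB-GUThealth diets above it, and none by much more than 1 SE. These 4 differences share the same control fish. Leaving out the lowest CT fish, 0.381, moved them to -0.26, -0.38, -0.05 and 0.15 in the same order, which turned the sign for GH5.

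The wider gap was between the 2 ingredients. With both doses weighted equally, fish fed LB-GUThealth exceeded those fed LB-GREENboost in cldn5 by 0.37 ± 0.15 on the log2 scale (SE, 48 fish), a fold of 1.30. At 0.5% the difference was 0.22 ± 0.18, and at 1% it was 0.53 ± 0.24, a fold of 1.45. Counted over all pairs of an LB-GUThealth fish and an LB-GREENboost fish, the former was higher in 393 of 576 pairs (68.2%), in 95 of 144 (66.0%) at 0.5% and in 104 of 144 (72.2%) at 1%. These pairs reuse the same 48 fish and are not independent of each other. The direction was the same at both doses, by 1.2 SE at 0.5% and 2.2 SE at 1% in the log2 difference. Leaving out any single fish kept the difference between 0.33 and 0.43.

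Dose made a smaller difference. Averaged over the ingredients, 1% exceeded 0.5% by 0.04 ± 0.15. The change from 0.5% to 1% was -0.12 ± 0.22 within LB-GREENboost and 0.20 ± 0.21 within LB-GUThealth. The difference of these 2 changes was 0.32 ± 0.30, about 1 SE.

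The ratio combines 2 measured cycles, and each can be followed alone. The mean cldn5 cycle was 28.10 in CT, 28.14 and 28.28 with 0.5% and 1% of LB-GREENboost, and 27.85 and 27.99 with the same doses of LB-GUThealth. Both LB-GUThealth diets thus had earlier cycles than CT and both LB-GREENboost diets later ones. In the same order the mean eef1a cycle was 18.79, 18.68, 18.71, 18.61 and 18.95, so the reference appeared latest in the diet with the highest ratio. A later reference raises the ratio of every gene divided by it.

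Split in this way, the log2 difference of 0.37 between ingredients held 0.29 ± 0.12 from the cldn5 cycle and 0.08 ± 0.10 from the eef1a cycle. Most of it was in the cldn5 cycle, which also depends on the amount of cDNA loaded. At 1% the 0.53 held 0.30 ± 0.13 from cldn5 and 0.24 ± 0.17 from eef1a, while at 0.5% cldn5 alone gave 0.29 ± 0.19 and eef1a gave -0.07 ± 0.11. The cldn5 cycle therefore differed by nearly the same amount at both doses, 0.29 and 0.30, and the larger ratio at 1% went with the reference. The rise from GH5 to GH10 was of the same kind. The ratio rose by 0.20 ± 0.21, the cldn5 cycle alone gave -0.14 ± 0.16, and the eef1a cycle gave 0.34 ± 0.15. For the difference of the 2 dose changes, cldn5 alone gave 0.01 ± 0.23 and eef1a 0.31 ± 0.20. Whether the eef1a transcript itself differed between diets or the amount of cDNA loaded did was not tested.

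**Figure D2:**
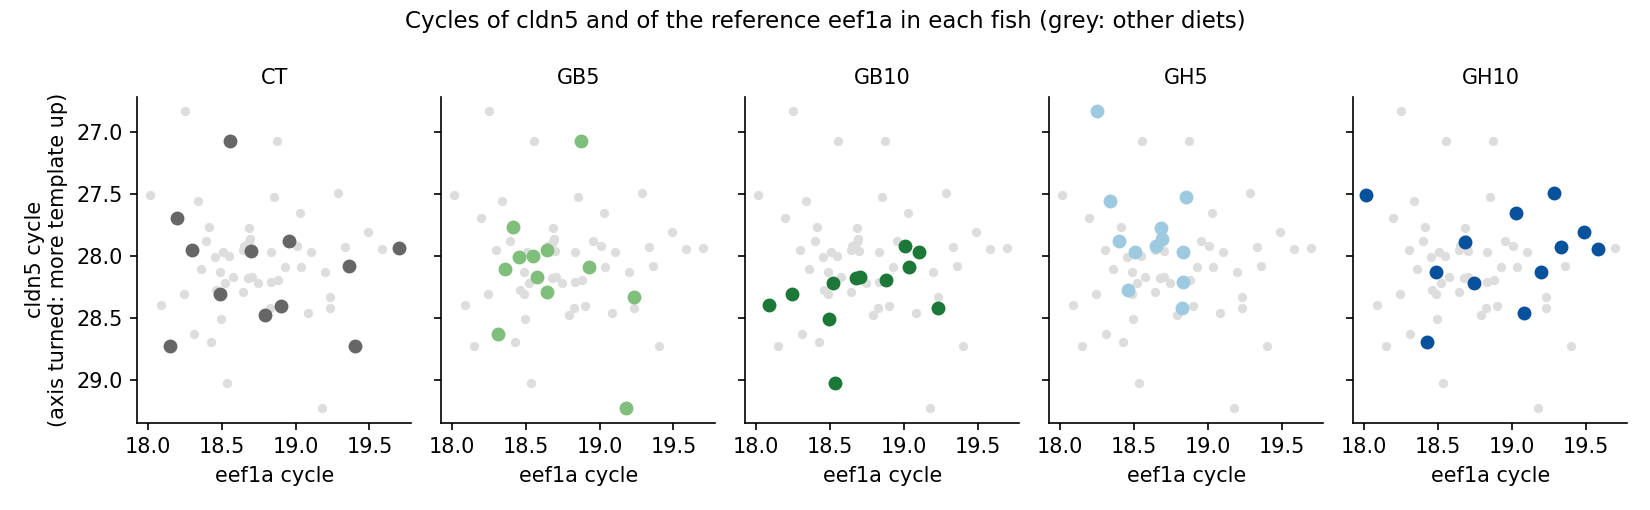
Cycle of cldn5 (vertical axis, turned so that more template is up) against the cycle of the reference eef1a (horizontal axis) in each fish, 1 panel per diet with 12 coloured points and the fish of the other diets in grey. The mean cldn5 cycle is 27.85 in GH5 and 28.28 in GB10, and the eef1a cycles of GH10 reach 19.585.

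The 2 cycles were also read for the GH10 fish with the highest ratio. Choosing fish by a high ratio favours late eef1a and early cldn5 cycles. Of 2 deposited lists of eef1a cycles, which hold the same values in another order, the one behind the cldn5 ratio was used. Whether it follows the order of the cldn5 fish was not tested. The 5 fish with the highest ratio, 1.48 to 1.96, had eef1a cycles between 19.03 and 19.585 and cldn5 cycles between 27.495 and 27.94. In the other 7 GH10 fish eef1a ranged from 18.01 to 19.20 and cldn5 from 27.51 to 28.69, so that both cycles overlapped. Over the 12 GH10 fish the ratio followed the eef1a cycle with a Spearman rho of 0.88, and the level of cldn5 (its cycle with the sign turned) with a rho of 0.57. In GB10 these were 0.88 and 0.79, and in GH5 they were 0.13 and 0.82. The ratio contains both cycles, so each correlation is at least in part arithmetic, and they are given as a description. The highest GB5 fish had a cldn5 cycle of 27.07, the earliest of its diet. Its eef1a cycle was 18.875, inside the range of its diet from 18.31 to 19.235.

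The relation of the cldn5 cycle to the eef1a cycle varied in sign among diets, but whether the diets differed in it was not tested. This relation also rests on the fish order of that eef1a list. Centred on the diet means over 60 fish, their Spearman rho was -0.01 (Pearson r = 0.06). Within diets (12 fish each) rho was -0.52 in GB10, -0.16 in GH10, 0.07 in CT, 0.14 in GB5 and 0.29 in GH5. The GH5 value depended on the statistic, with a Pearson r of 0.53. The SD within diets was 0.42 for the cldn5 cycle and 0.39 for the eef1a cycle, and the SD of the log2 ratio was 0.55, above either cycle and close to the 0.57 that 2 unrelated cycles would give. The log2 ratio had a larger SD than the cldn5 cycle in 4 of the 5 diets, and a smaller SD in GH5 (0.35 against 0.42).

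The ratio to the other claudins of the same fish is free of eef1a. It is the difference of 2 cycles, and loading that is common to both genes cancels. This holds if a row number marks the same fish for each gene, which was not tested. Between ingredients, cldn5 was higher with LB-GUThealth relative to each of the 6 partners. The differences were 0.41 ± 0.13 against cldn4l (SE, 48 fish), 0.18 ± 0.13 against cldn7b and 0.26 ± 0.13 against cldn15 (47 fish). Against the late claudins they were 0.58 ± 0.23 for cldn24, 0.49 ± 0.38 for cldn4 and 0.65 ± 0.45 for cldn3 (46 fish). All 6 exceeded 1 SE, 2 exceeded 2 SE (cldn4l and cldn24), and their median was 0.45. With only the fish that have a ratio for all 14 genes, the difference fell to 0.08 ± 0.14 against cldn15, under 1 SE, and to 0.24 ± 0.12 against cldn4l, under 2 SE. The 6 ratios hold the same cldn5 cycles and so are not separate measurements of cldn5.

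The direction was also the same at each dose. At 0.5% the 6 differences ran from 0.07 ± 0.18 (SE) with cldn7b to 1.10 ± 0.71 with cldn3, and 3 exceeded 1 SE. At 1% they ran from 0.15 ± 0.19 with cldn15 to 0.88 ± 0.35 with cldn24, and 4 exceeded 1 SE. At each dose 1 of the 6 exceeded 2 SE. The dose difference, in contrast, was above 0 for 1 of 6 partners, with a median of -0.11. In size it exceeded 1 SE for 1 of 6.

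**Figure D3:**
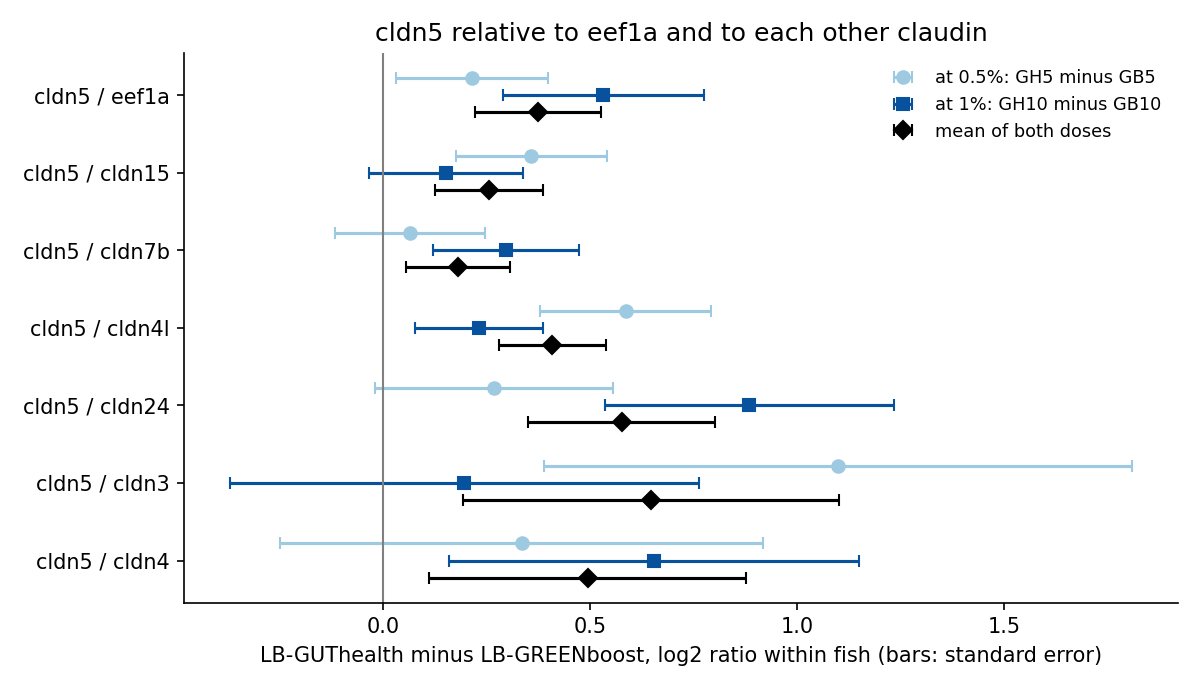
Difference between LB-GUThealth and LB-GREENboost in the log2 ratio of cldn5 to eef1a and to each of 6 other claudins of the same fish, at 0.5%, at 1% and over both doses. Points are mean differences and bars are the SE over fish. All points lie above 0, and the bars are widest for cldn3 and cldn4.

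Part of each ratio lies in the partner. With the sign turned so that more template is positive, the partners' own cycles differed between ingredients by 0.05 ± 0.09 for cldn15, 0.11 ± 0.13 for cldn7b and -0.12 ± 0.10 for cldn4l. For the late claudins the differences were -0.29 ± 0.27 for cldn24, -0.20 ± 0.43 for cldn4 and -0.41 ± 0.48 for cldn3. The cldn5 difference of 0.29 was larger than those of cldn15, cldn7b and cldn4l. In size it was nearly matched by cldn24 and exceeded by cldn3, both of opposite sign and with a wider SE. At 0.5% the difference of cldn5 to cldn4l, 0.59 ± 0.21, was made of 0.29 ± 0.19 from cldn5 and a lower cldn4l, at -0.30 ± 0.15. At 1%, cldn4l differed by 0.06 ± 0.12 and the ratio by 0.23 ± 0.15.

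The reference with the smallest spread was the mean cycle of the 3 abundant claudins, cldn4l, cldn7b and cldn15. Relative to it the SD of cldn5 within diets was 0.37. It was 0.55 with eef1a, 0.52 with all 6 claudins and 0.42 for the cycle alone. Singly, cldn4l, cldn7b and cldn15 gave 0.44, 0.48 and 0.46. These 3 genes also varied most like cldn5 in relative expression, where eef1a is shared, but not in the cycles. Whether the smaller SD marks a better reference was not tested. With their mean, the difference between ingredients was 0.30 ± 0.10 (47 fish). Relative to the mean of all 6 claudins it was 0.37 ± 0.15 (45 fish). With the cldn5 cycle alone it was 0.29 ± 0.12. The difference between ingredients was thus between 0.29 and 0.37 with these 4 settings. All 4 hold the same cldn5 cycles and so are not separate measurements of cldn5. The dose difference was 0.04 with eef1a and -0.14, -0.06 and -0.12 with the cycle alone, the 6 claudins and the 3 abundant claudins.

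**Figure D4:**
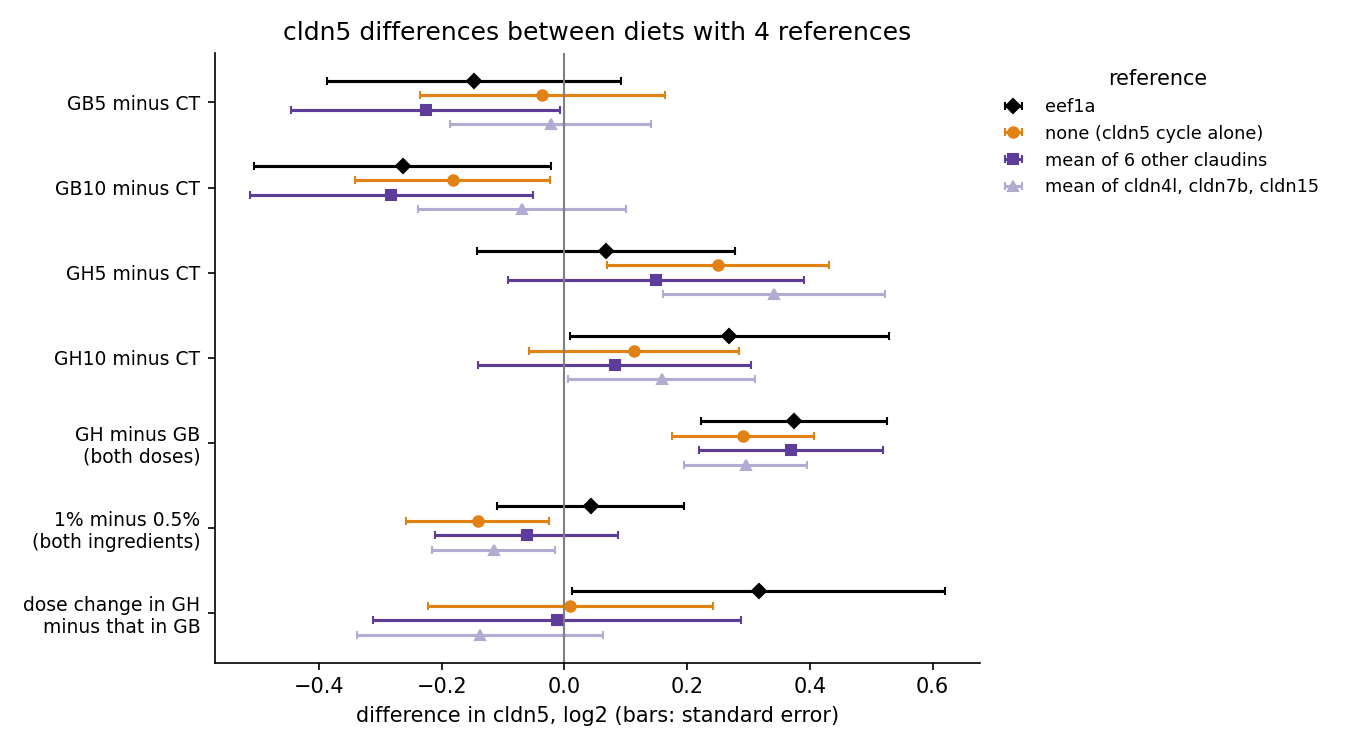
Differences of cldn5 between diets on the log2 scale with eef1a, no reference, the mean of 6 claudins or the mean of 3 abundant claudins as the reference. Points are mean differences and bars are the SE over fish. The difference between ingredients stays between 0.29 and 0.37, while the dose difference and the difference of the dose changes fall on both sides of 0. All settings hold the same cldn5 cycles.

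Against CT the partners gave less even values. GH5 was above CT relative to 5 of 6 claudins, by 0.53 ± 0.20 against cldn4l and by 0.17 ± 0.22 and 0.24 ± 0.19 against cldn7b and cldn15. GH10 was above CT relative to 4 of 6, from -0.40 ± 0.73 with cldn3 to 0.30 ± 0.16 with cldn4l. GB5 and GB10 were above CT relative to 1 of 6 each, and GB10 reached -0.69 ± 0.32 against cldn24. The CT fish with the earliest cldn5 cycle, 27.07, has a cldn24 cycle but no deposited cldn24 ratio. Without that fish, a choice made after the values were seen, the difference of GB10 from CT relative to cldn24 was -0.91 ± 0.24, and that of GB5 moved from -0.24 ± 0.32 to -0.46 ± 0.24. Both LB-GUThealth diets turned sign relative to cldn24, GH5 from 0.03 ± 0.34 to -0.19 ± 0.26 and GH10 from 0.20 ± 0.39 to -0.02 ± 0.32, which leaves GH5 above CT relative to 4 of 6 claudins and GH10 relative to 3 of 6.

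Genes of lymphocytes were the markers for other cells in the tissue. Between ingredients, cd4, a co-receptor of T helper cells, differed by 0.16 ± 0.15 in log2 relative expression and by 0.09 ± 0.16 in its cycle with the sign turned. For igm, the immunoglobulin heavy chain of B cells, the relative expression differed by 0.26 ± 0.29. Its deposited ratio follows from its cycles in only 40 of 60 fish, and 20 igm cycles are equal to those of cldn15, so no cycle is given for it. The mean cd4 cycle was earliest in GH5 (28.61) and latest in GB10 (29.08), and so was the mean cldn5 cycle. The diets in between did not keep the same order for both genes. GH10 had a later cd4 cycle than CT, 29.03 against 28.92, but an earlier cldn5 cycle, 27.99 against 28.10. GB5 had an earlier cd4 cycle than CT, 28.73, but a later cldn5 cycle, 28.14. Cycles of both genes also depend on the amount of cDNA loaded. The part of lymphocytes in the cldn5 differences was not tested.

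The genes whose relative expression varied most like cldn5 among fish of the same diet were the abundant claudins. Spearman rho, after centring on diet means, was 0.60 for cldn4l (60 fish), 0.59 for cldn7b (60 fish) and 0.53 for cldn15 (59 fish), and it lay between 0.38 and 0.52 for the other 6 genes normalised with the same eef1a cycles. These values share the reference in every fish. In the cycles, which do not, rho fell to 0.28, 0.29 and 0.23 for the 3 genes. It stayed at 0.54 for il10, the gene of an anti-inflammatory cytokine, and at 0.48 for cldn24, the first and second of the 9 genes by cycles. All cycles of a fish come from the same cDNA, and the part of its amount in these correlations was not tested.

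Within single diets (10 to 12 fish) the likeness varied in size and sign, but whether the diets differed in it was not tested. For cldn4l the rho in relative expression was 0.83 in CT, 0.45 in GB5, 0.78 in GB10 and 0.73 in GH10, but -0.43 in GH5, the diet in which eef1a varied least. For cldn15 the GH5 value was -0.14 (11 fish), against 0.53 to 0.73 in the other diets. For cldn7b it was positive in every diet, at 0.24 in GH5 and from 0.38 (CT) to 0.87 (GH10) in the others. For il10 the rho of cycles ranged from -0.22 in GB10 to 0.89 in GB5.

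**Figure D5:**
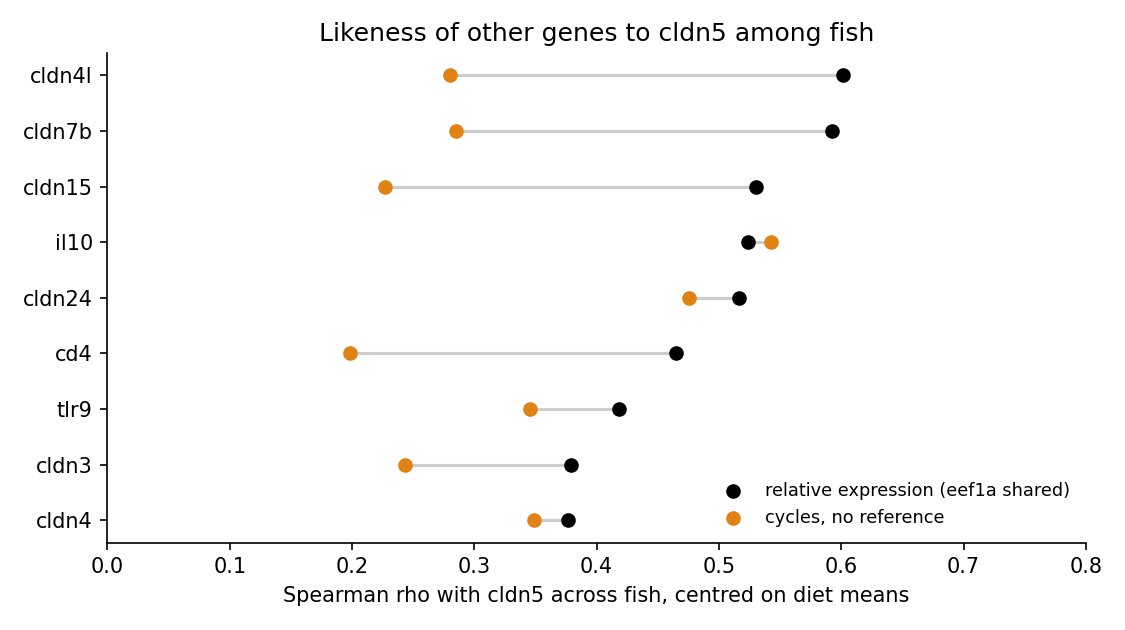
Spearman rho between cldn5 and each of 9 other genes across fish, centred on diet means, for relative expression (black) and for cycles without a reference (orange). The values of cldn4l, cldn7b and cldn15 are between 0.53 and 0.60 in relative expression and between 0.23 and 0.29 in cycles, while il10 has 0.52 and 0.54.

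The spread of cldn5 around the diet medians was also compared among the diets. It comes from the same values from which the gene was chosen, so the p-values below are a description. The permutations treat fish as independent, although fish shared tanks that are not named. The SD of the log2 ratio was 0.64 in CT, 0.53 and 0.55 in GB5 and GB10, and 0.35 and 0.64 in GH5 and GH10. Absolute deviations from the diet medians gave F = 1.26, and a permutation test over 60 fish (upper tail) gave p = 0.295. For the cldn5 cycle, with SDs of 0.47, 0.51, 0.29, 0.42 and 0.36 in the same order, the permutation test gave p = 0.745. The eef1a cycle had SDs of 0.50, 0.31, 0.35, 0.21 and 0.48 and gave p = 0.0942, in a permutation test added after the values were seen. The diet with the smallest SD of the ratio, GH5, also had the smallest SD of the reference and not of cldn5. Its 2 cycles had a Pearson r of 0.53, and unrelated cycles would have given a ratio SD of 0.47 in place of 0.35. For GB10 that value was 0.46, against an SD of the ratio of 0.55. The part of the reference in the spread was not tested.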

How the data were processed

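RNA of the anterior intestine of single fish was reverse-transcribed and amplified in duplicate wells with EvaGreen. The authors deposited quantification cycles (log2 scale, without normalisation) and relative expression, a ratio obtained by the ΔΔCT method with eef1a as the reference and the mean of CT as 1. Per their methods, outliers by ROUT (Q = 1%) were left out of the analyses. Some deposited cycles have no deposited ratio. How the cycle threshold was set is not given in the sources used here. The duplicate wells are not given separately, so the precision of a cycle is unknown. The deposited table of fold changes between groups holds the authors' own comparisons and was not used.

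Recomputed from the cycles, the cldn5 ratio differed from the deposited one by less than 0.1% in 60 of 60 fish with the first of 2 deposited eef1a lists, which also serves 9 other genes, and in 0 of 60 with the second list. The second list holds the same values in another order. Which order matches the fish of the cldn5 cycles was not tested. Nor was it tested whether a row number marks the same fish for every other gene. Fish were grouped by diet from the labels. Differences are of mean log2 relative expression, with an SE from the variance of each diet. For a ratio within fish, the cldn5 cycle was subtracted from that of the other claudin. The named genes are cldn5, the other claudins, eef1a and the 3 genes with the highest Spearman rho with cldn5. Markers were cldn15, cd4 and igm, and il10 was named after its value was seen. Spread was compared by 100000 permutations with a fixed seed, after the test was tested on simulated data. The gene, the lists and the tests were chosen with earlier results of these data known. Alternatives covered the reference, the scale, medians and the fish included. Tables were handled with pandas 2.3.3 and statistics with scipy 1.17.1 and numpy 2.4.6 under Python 3.11.15, and plots were drawn in matplotlib 3.10.9.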

Additional observations from a re-analysis of the deposited data

How the results depend on the processing

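The difference between ingredients kept its sign in all 10 alternatives. It lay between 0.27 ± 0.15 (SE, only fish with a ratio for all 14 genes) and 0.43 ± 0.14 (without the highest GB5 fish). In each count of 10 alternatives, 1 is the ratio recomputed from the cycles, which equals the main value and could not change a sign. The dose difference changed sign in 3 of 10 alternatives, those with another reference or none, and ranged from -0.14 to 0.10. The difference of the dose changes, 0.32 with eef1a, became -0.012 with the mean of the other claudins and -0.14 with the mean of cldn4l, cldn7b and cldn15, and lay between 0.20 and 0.43 when single fish were left out. GH5 minus CT changed sign with arithmetic means (-0.02) and without the lowest CT fish (-0.05), and GB5, GB10 and GH10 minus CT kept theirs in 10 of 10 but not their size. With cldn4l, cldn7b and cldn15 as the reference, GB5 moved from -0.15 to -0.02, GB10 from -0.26 to -0.07 and GH5 from 0.07 to 0.34, and with the mean of the other claudins GH10 moved from 0.27 to 0.08. Relative to single claudins, the difference between ingredients kept its sign in every alternative, and its lowest values were 0.08 ± 0.14 (SE) for cldn15 and 0.24 ± 0.12 for cldn4l with only fish that have all genes, and 0.09 for cldn7b with medians. The permutation test of spread gave p from 0.0931 (highest and lowest fish of each diet left out) to 0.952 (mean of the other claudins). These p-values are a description, since the gene was chosen from the same values. Leaving out the highest and lowest fish also changes the spread itself. No paired analysis was possible because fish of different diets are different animals and the sources used here do not say whether a row number marks a shared tank or day. With 12 fish per diet and a pooled SD of 0.55, a difference from CT has an SE of 0.21 to 0.26. Differences of about 1 SE, as for GB10 and GH10, cannot be told from the spread between fish. The SE could also be too small if tanks differed.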
